A study of Homo sapiens with 2 samples.

Results

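A set of 10 genes that p53 is known to switch on in stressed cells was followed in SNK6, a human lymphoma line of NK/T cell origin that carries the Epstein-Barr virus. Their products repair DNA, handle oxidants, slow growth or act in cell death. Cells of both groups grew with interleukin-2 at 500 U/ml and received romidepsin, which blocks class I histone deacetylases. One group had romidepsin alone for 72 h (1 array) and the other romidepsin together with sildenafil, a phosphodiesterase inhibitor, for the same 72 h (1 array). The title of the second sample gives its added drug in short form only, and it was read as sildenafil because the treatment description lists no further drug. The labels state no dose, no untreated culture was analysed here, and all cells are of 1 line. The genes (RRM2B, TP53I3, SESN1, SESN2, CCNG1, GDF15, PLK3, AEN, TIGAR and TRIAP1) were chosen from a longer list of p53 targets after the difference between these same arrays was known. All differences of these genes are therefore a description without a test. All 10 were found among the 14884 genes with a name on the array, each with 1 probe set.

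The transcription factor p53 is held at a low level by MDM2 and is stabilised when DNA is damaged or growth is stressed. It then binds a DNA element made of a pair of like half-sites and raises transcription of arrest, repair, metabolic and death genes. Several of the genes studied here also answer to other stress pathways, such as ATF4 for SESN2 and GDF15, so their level is not a reading of p53 alone. MDM2 and CDKN1A, which encodes the cell cycle inhibitor p21, were not analysed here.

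The DNA around the gene starts shows how differently these promoters are built, and it is given first because p53 acts by binding DNA. RefSeq windows (GRCh38.p14) from 250 bases before to 50 bases after a start were matched by symbol for 9 of the 10 genes, in 12 windows. The p53 half-site consensus, 10 bases with 3 purines, a C, 2 bases that are A or T, a G and 3 pyrimidines, reads the same on both strands. An exact half-site lay in 2 of the 12 windows, of AEN and SESN1, against 6.63% of all 35116 windows. A pair of half-sites without a spacer and with at most 3 mismatches over 20 bases lay in 3 of the 12 windows. These belong to AEN, SESN1 and GDF15, and 5.20% of all windows had such a pair. Only the AEN pair had as few as 2 mismatches, as 0.649% of all windows had. Those letters are a match to a consensus and not a measured binding site. Sites outside these windows and pairs with a spacer were not searched, so a gene without a match here may still have a p53 element. The following stretches run from base -80 to base -1 before the start, except the short GDF15 pair, which lies at bases 29 to 48 after it. Capitals mark the pair of half-sites, or for the longer GDF15 stretch the TATA box (TATAAA).
AEN, chr15:88621260-88621339, plus strand: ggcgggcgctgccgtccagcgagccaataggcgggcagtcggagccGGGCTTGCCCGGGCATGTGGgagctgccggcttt
SESN1, chr6:109008989-109009068, minus strand: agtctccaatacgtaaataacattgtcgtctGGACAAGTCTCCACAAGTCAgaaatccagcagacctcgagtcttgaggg
GDF15 pair, chr19:18386186-18386205, plus strand: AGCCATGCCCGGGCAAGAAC
GDF15 TATA box, chr19:18386078-18386157, plus strand: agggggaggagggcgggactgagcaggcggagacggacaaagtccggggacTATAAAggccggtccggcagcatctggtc

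The AEN pair lies at bases -34 to -15 and has its exact half-site first, followed by a half-site with 2 mismatches. The SESN1 pair, at bases -49 to -30, belongs to 1 of 3 annotated starts of that gene and joins an exact half-site to one with 3 mismatches. The GDF15 window alone had the TATA box, which 7.33% of all windows hold on the sense strand. CCAAT boxes (CCAAT, or ATTGG on the other strand) lay in 8 of the 12 windows, and in 34.6% of all windows. The 8 belong to 6 of the 9 genes: AEN, CCNG1, GDF15, SESN1, SESN2 and TIGAR. Windows of CCNG1 overlap and share the boxes printed below, so that promoter is counted more than once. The ATF4-type element (TGATGNAA, either strand) lay in a PLK3 window and in 3.62% of all windows. The CCNG1 windows, which hold no pair of half-sites within 3 mismatches, have paired CCAAT boxes in front of the start (capitals, bases -80 to -1 of the upstream start).
CCNG1, chr5:163437491-163437570, plus strand: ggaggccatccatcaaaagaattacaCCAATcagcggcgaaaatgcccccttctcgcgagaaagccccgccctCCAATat

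Values are the log2 signals that the authors deposited, and a difference is always the combination value less the romidepsin value, so a negative number means a lower signal with sildenafil. A gene entered the comparison if it reached 3.91, the middle of the deposited values, on at least 1 array, as 10081 genes did. All 10 p53 targets passed this level on both arrays, their lowest signal being 4.66 and their highest 8.73. Signals of different probe sets are not on one scale of abundance, so no gene's level is set against another's. With 1 array per group there is no replicate error, and the difference between drug treatments cannot be told apart from the difference between 2 cultures or 2 arrays. For scale, each gene was placed among the 500 genes nearest to it in mean signal.

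Of the targets, 6 were lower by more than 0.1, and 4 lay within 0.1 of 0, as 43.1% of all genes did. RRM2B, TP53I3, SESN2, CCNG1, SESN1 and AEN had differences between -0.33 and -0.18, and PLK3, TIGAR, GDF15 and TRIAP1 lay between -0.00 and 0.06. The median of the 10 was -0.22, beside -0.01 over all 10081 genes. Of the 10, 7 had a difference below 0, against 52.4% of all genes, and 4 (RRM2B, TP53I3, SESN2 and CCNG1) were at least 1.2-fold lower, against 9.63% of all genes. None was 1.5-fold apart in either direction, while 1.99% of all genes were. Since the same differences were known when these genes were chosen, nothing is read from their distance to the other genes.

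**Figure D1:**
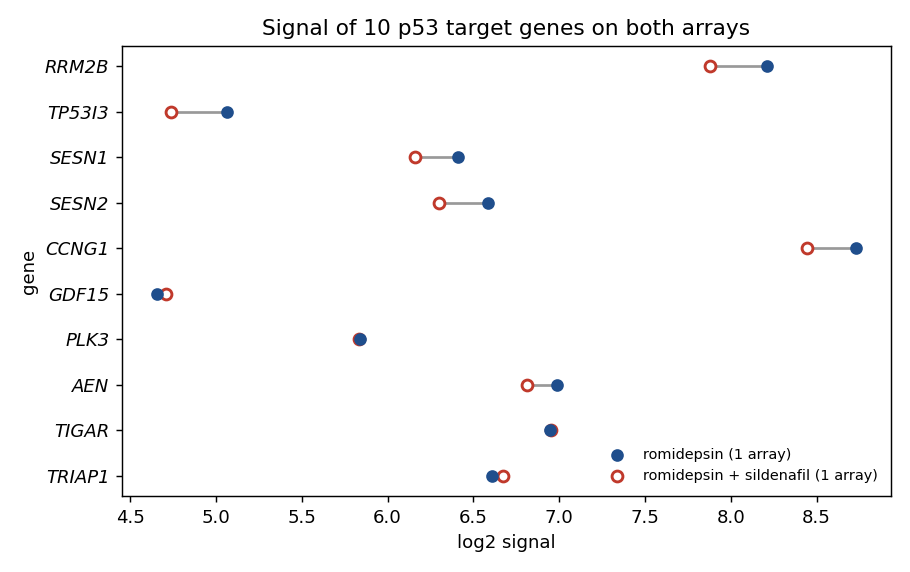
Log2 signal (horizontal axis) of each of the 10 p53 target genes (vertical axis) on the romidepsin array (filled) and the romidepsin plus sildenafil array (open), 1 array per point. The open point lies clearly to the left for RRM2B, TP53I3, SESN1, SESN2, CCNG1 and AEN, and the points nearly coincide for PLK3 and TIGAR.

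RRM2B encodes p53R2, a small subunit of ribonucleotide reductase that supplies DNA building blocks for repair and for mitochondrial DNA outside S phase. Its log2 signal was 8.21 with romidepsin and 7.88 with sildenafil added, a difference of -0.33 or 1.26-fold lower. That was the lowest value of the 10 genes, and 12 of the 500 genes of like signal lay lower still. The central 95% of those like-signal genes ran from -0.32 to 0.16, so RRM2B lay just below it, though not with 200 like-signal genes, of which 5% were lower. The other subunits of the enzyme were nearly level on the arrays: RRM1, the large subunit, went from 8.86 to 8.82 and RRM2, the S phase small subunit, from 8.65 to 8.72. Over 10 measured genes of deoxynucleotide supply the median was -0.06, with 6 lower (52.4% of all genes were), 4 higher and none 1.2-fold apart. The widest differences among them were in DCTD, dCMP deaminase (-0.20), TYMS, thymidylate synthase (-0.17), and DUT, dUTPase (0.15).

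AEN encodes an exonuclease that degrades DNA during p53-dependent apoptosis. Its log2 signal was 6.99 with romidepsin and 6.81 with the combination, a difference of -0.18. Among 500 genes of like signal 82 lay lower, so AEN was inside their central 95% (-0.34 to 0.25). ISG20, a related interferon-induced exonuclease and the next protein-coding gene after AEN on chromosome 15, went from 5.11 to 4.49. At -0.62 it was the only one past 1.5-fold among 9 measured family relatives of the 10 genes, where 1.99% of all genes were. Of its 500 like-signal genes 7 lay lower.

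The redox and metabolic targets divided. TP53I3 encodes a quinone oxidoreductase linked to reactive oxygen formation, and its log2 signal was 5.06 without and 4.74 with sildenafil. Its difference of -0.32 was nearly that of RRM2B, yet 41 of 500 like-signal genes were lower, and genes at this signal spread more widely (SD 0.26, against 0.13 around RRM2B). TIGAR encodes a fructose bisphosphatase that directs glucose into the pentose phosphate pathway and so helps to keep glutathione reduced. Its log2 signals were 6.95 and 6.95, a difference of 0.00 (313 of 500 like-signal genes lower).

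The sestrins SESN1 and SESN2 encode leucine-sensing inhibitors of mTORC1 that act through the GATOR complexes. SESN1 had log2 signals of 6.41 without and 6.16 with sildenafil, a difference of -0.25. SESN2 had 6.59 and 6.30, a difference of -0.29. These related genes thus had differences 0.03 apart, with 54 of 500 like-signal genes below SESN1 and 38 below SESN2, both inside the central 95% of those genes. SESN3, another sestrin, did not reach the signal filter (3.72 and 3.58). Of 23 measured GATOR, Rag, Ragulator, TSC and mTORC1 genes of their pathway 8 were lower and 15 higher, where 52.4% of all genes were lower. Their median was 0.05, beside -0.01 over all genes, and 0.02 after median centring, beside -0.04 over all genes. After quantile normalization it was 0.08, beside 0.02, and 5 of the 23 were lower, where 44.4% of all genes were. The widest differences there were RRAGB, a Rag GTPase (0.30), CASTOR1, an arginine sensor (0.25), and TSC2, tuberin, an inhibitor of mTORC1 (0.25).

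CCNG1 encodes cyclin G1, a p53-induced cyclin that recruits a phosphatase to MDM2. Its log2 signal was 8.73 with romidepsin and 8.44 with the combination, a difference of -0.28 or 1.22-fold lower. Here 13 of 500 like-signal genes lay lower, at the lower edge of their central 95% (-0.28 to 0.18), and with 200 or 1000 such genes CCNG1 was inside it (3% and 3.10% lower). Its relatives CCNG2 and CCNI went from 5.13 to 5.16 and from 9.43 to 9.40. PLK3, a stress-activated polo-like kinase, had 5.84 without and 5.83 with sildenafil, a difference of -0.00. Of the other polo-like kinases, the mitotic PLK1 was at -0.03 and PLK4, which starts centriole duplication, at -0.20 (7.41 and 7.21). PLK2 and PLK5 did not reach the filter.

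GDF15 and TRIAP1 had the highest differences of the 10. GDF15 encodes a secreted stress hormone of the TGF-beta superfamily that lowers appetite through the receptor GFRAL. Its log2 signal was 4.66 without and 4.71 with sildenafil, a difference of 0.05, in the middle of its like-signal genes (267 of 500 lower). GFRAL itself did not reach the filter, and RET, the co-receptor, was measured close to the filter at 3.98 and 4.26. The related GDF11 was at -0.02, and MSTN did not reach the filter. TRIAP1 encodes a small mitochondrial protein that carries lipid with PRELI-type partners and opposes apoptosis. It had 6.61 and 6.67, a difference of 0.06, with 390 of 500 like-signal genes lower. Of its partner family PRELID2 and PRELID3A were named on the array and did not reach the filter.

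**Figure D2:**
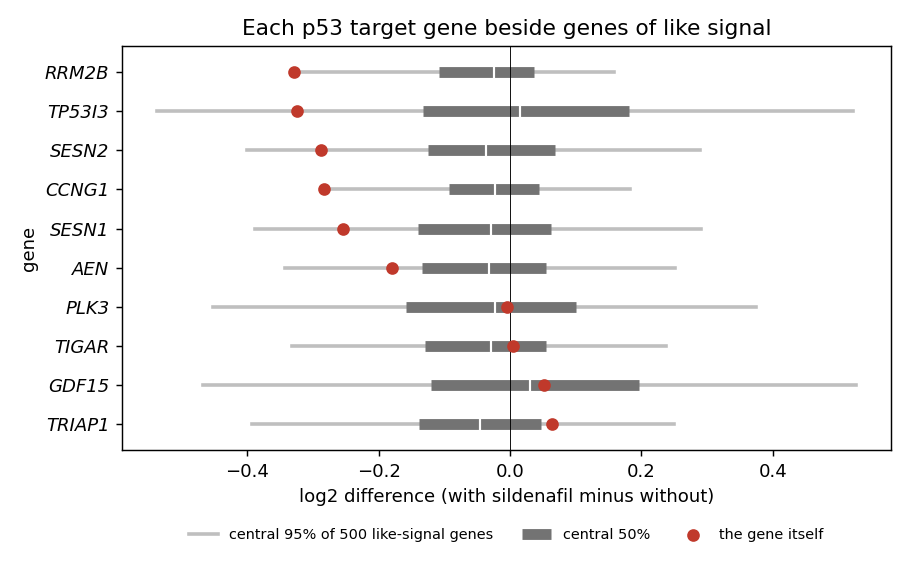
Log2 difference, with sildenafil minus without (horizontal axis), of each of the 10 p53 target genes (points) beside the central 95% (thin bar), central 50% (thick bar) and median (white tick) of the 500 genes nearest in mean signal. RRM2B and CCNG1 sit at the lower end of the thin bar, with 12 and 13 of 500 genes below them, while PLK3, TIGAR and GDF15 sit inside the thick bar.

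**Figure D3:**
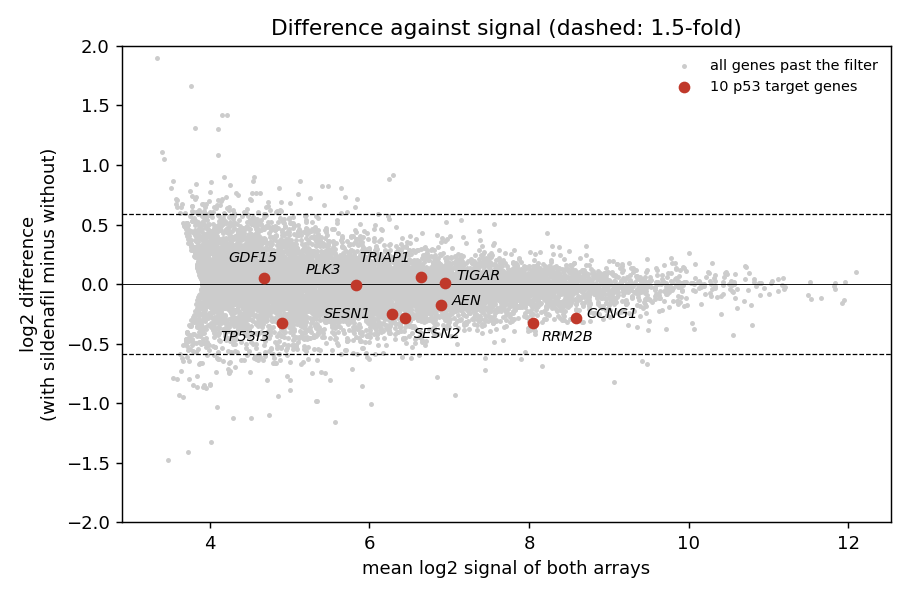
Log2 difference (vertical axis) against mean log2 signal of both arrays (horizontal axis) for the 10081 genes past the signal filter (grey) and the 10 p53 target genes (red), with dashed lines at 1.5-fold. The cloud narrows toward high signal, and no red point crosses a dashed line.

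Scaling the arrays in another way moved PLK3 and TIGAR across 0 in some settings and left the other 8 on their side. PLK3 was above 0 after quantile normalization and after lowess centring, and TIGAR was below 0 after median centring. The number of targets below 0 was therefore 8 after median centring, when 59.7% of all genes were below 0, and 6 after quantile normalization (44.4% of all genes) or lowess centring (49.8%).

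Other p53 targets spread more widely. Of 55 listed, 26 were named and 21 passed the filter, with 15 lower (52.4% of all genes were), 6 higher and a median of -0.07. DUSP5, a phosphatase of ERK, went from 6.55 to 6.21 (-0.34), and DRAM1, a lysosomal protein that promotes autophagy, from 6.51 to 6.17 (-0.34). BBC3, which encodes the death-promoting protein PUMA, went the other way, from 5.24 to 6.05, above all 500 genes of like signal, and was the one gene of these 21 past 1.5-fold. BAX, the pore-forming death effector, was at -0.16 (8.23 and 8.07). At 1.2-fold, 3 of these 21 genes were lower, near the 9.63% of all genes, and 1 was higher.

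Genes that control p53 had differences closer to 0. Of 37 listed, 23 passed the filter, with 15 lower (52.4% of all genes were), 8 higher and a median of -0.04. After quantile normalization 9 were lower and the median was 0.02. All genes then had a median of 0.02 as well, with 44.4% lower. CHEK2, a kinase that phosphorylates p53 after DNA breaks, went from 4.92 to 4.53 (-0.39), DYRK2, another p53 kinase, was at -0.31 and TP53RK at -0.26. MDM4, an inhibitor of p53 related to MDM2, went from 8.22 to 8.11 (-0.11).

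ATF4, the transcription factor that also drives SESN2, went from 9.56 to 9.37 (-0.18), with 39 of 500 like-signal genes lower. The 12 measured genes of the list of ATF4 and its targets were evenly divided, 6 lower and 6 higher, where 52.4% of all genes were lower. Their median was 0.01 (all genes -0.01), and -0.02 after median centring (all genes -0.04). CTH, cystathionine gamma-lyase, was at -0.39, and DDIT4, an inhibitor of mTORC1, at 0.17. Of genes often used as invariant references 6 were measured, 4 lower and 2 higher, with a median of -0.08. After quantile normalization 3 were lower, where 44.4% of all genes were, and the median was -0.02 (all genes 0.02). HPRT1, a purine salvage enzyme, went from 8.18 to 7.85, a difference of -0.33 that equals that of RRM2B at nearly the same signal, and GAPDH and PPIA were at -0.26 and -0.14. B2M was at -0.01, PGK1 at 0.07 and TBP at 0.10.

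**Figure D4:**
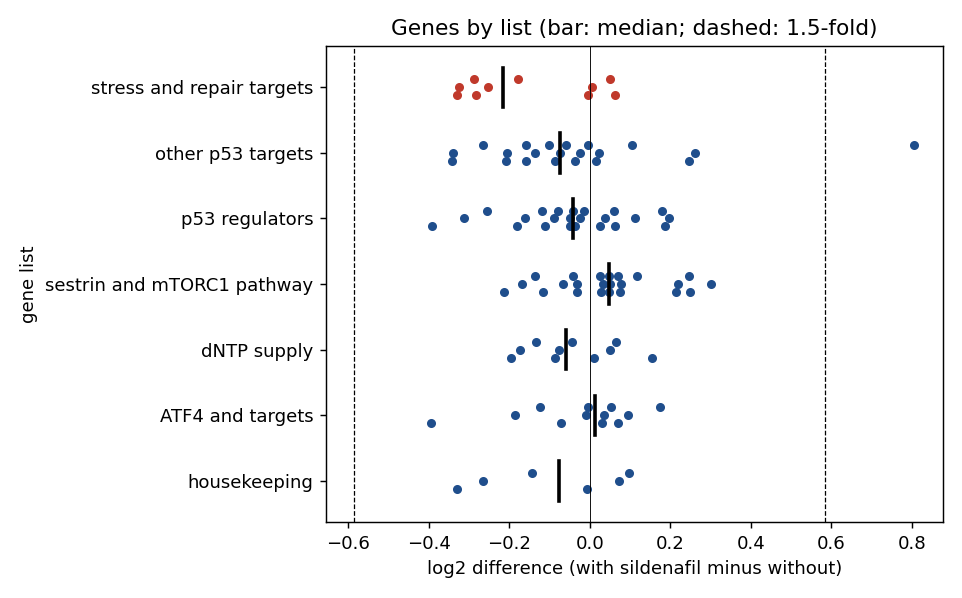
Log2 difference, with sildenafil minus without (horizontal axis), of every gene past the signal filter in 7 gene lists (vertical axis), with the median of each list as a bar and dashed lines at 1.5-fold. The medians are -0.22 for the 10 stress and repair targets, -0.07 for other p53 targets and 0.05 for the sestrin and mTORC1 pathway; the point at 0.81 is BBC3.

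The identity of the cells was checked on both arrays. NK and T cell genes passed the filter in 12 of 13 named cases, where 67.7% of all named genes passed, among them PRF1, perforin (8.83 and 8.81), CD2 (8.10 and 8.10) and NCAM1, CD56 (6.63 and 6.54). EOMES, an NK transcription factor, did not pass (3.21 and 2.90). The 12 that passed had a median difference of 0.03, and the widest were TBX21 (0.47), NCR2 (0.38) and NKG7 (-0.27). Markers of other cell types passed in 6 of 12 named cases, with CD14, LYZ, EPCAM, PECAM1, VWF and PPBP under it on both arrays. Those that passed were the epithelial keratins KRT18 (7.04 and 7.38), KRT8 (5.43 and 5.13) and KRT19 (4.13 and 3.86), the macrophage genes CD68 (6.72 and 6.61) and CSF1R (4.01 and 4.28), and the B cell factor PAX5 (5.23 and 5.05). KRT19 passed on the romidepsin array alone, and the keratins were on both sides of 0. The part of cell makeup in the p53 target differences was not tested.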

How the data were processed

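Per the labels' protocols, cDNA made from total RNA by whole-transcript amplification carried a biotin label, and each sample was measured on 1 array. The authors deposited log2 signals for 53617 probe sets; the file does not name the base, which was read from the range (0.79 to 13.05). How probe sets were summarised and normalized is not stated in the labels or the file. The columns' medians are 3.89 and 3.92. As the normalization is unknown, a change shared by most transcripts may have been scaled away and may not be seen.

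GEO's platform annotation gave 16098 probe sets 1 gene symbol, and the others are unnamed here. The probe set with the highest mean stood for a gene. The members and lists were chosen with earlier results of these data known. Named genes are all 10 members, measured family relatives, a few central p53 genes, and up to 3 genes per list with the widest difference, with further list members as examples of cell identity. No statistical test between the treatments was run. The number of arrays limits the precision. Alternatives changed scaling, filter, probe set rule, fold threshold and number of like-signal genes. Python 3.11.15, numpy 2.4.6, pandas 2.3.3 and statsmodels 0.14.6 were used.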

Additional observations from a re-analysis of the deposited data

How the results depend on the processing

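No paired analysis was possible because each group holds 1 array and no test was planned; for the same reason no replicate could be left out. The median of the members ranged from -0.24 (median centring) to -0.16 (quantile normalization). None of the members reached 1.5-fold under any scaling, filter or probe set rule tried, nor 2-fold; at a threshold of 1.2-fold 4 did, all lower. A filter on a mean signal of 5 left 8 of the 10, without TP53I3 and GDF15. RRM2B kept between 1.80% and 5% of like-signal genes below it with 200 or 1000 such genes or lowess centring, and CCNG1 between 2.40% and 3.10%. Of 88 further values for single members, 0 moved by more than 0.1 on the log2 scale or 5 percentage points. Each member has 1 probe set, so a change of filter or probe set rule could not alter its difference. Median centring shifts the differences of all genes alike. Those settings are therefore no check of the single members.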

Other observations

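Genes beside the p53 targets on the chromosome were looked at after the data had been seen, taking the 2 nearest protein-coding genes on each side in RefSeq order. Of these 40 neighbours 16 were named and past the filter, with 12 lower, 4 higher and a median of -0.12, beside 52.4% lower and a median of -0.01 over all genes. NUDCD2, next to CCNG1, went from 5.81 to 5.45 (-0.36), and CEP57L1, next to SESN1, from 5.33 to 5.05 (-0.28). HMMR, also near CCNG1, was at -0.12. NCALD, the only measured neighbour of RRM2B, was at -0.06. Around AEN, DET1 was at -0.26 and MRPS11 at -0.14, beside ISG20 at -0.62. Around SESN2, ATP5IF1 was at -0.19, MED18 at -0.17 and PHACTR4 at -0.06. The neighbours of targets near 0 included values on both sides: CCND2 beside TIGAR at 0.13, MSI1 and COX6A1 beside TRIAP1 at 0.24 and -0.03, SSBP4 near GDF15 at 0.23, and DYNLT4 and BTBD19 near PLK3 at 0.09 and -0.12.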
